A study of Mus musculus with 30 samples.

Results

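KLF4 and cJun belong to different classes of DNA-binding protein, and this comparison asked where in the genome both were found and what else was found at the sites of each. The sites were taken from the deposited ChIP-seq lists of the factors in 3T3-L1 pre-adipocytes. These lists are the shortest of the 9 used from the series, with 5875 KLF4 sites and 6175 cJun sites on chromosomes 1 to 19 and X. A site counted as shared when the same interval (identical chromosome, start and end) stood in both lists. This gave 2300 shared sites. A further 3575 sites were listed for KLF4 and not for cJun (KLF4-only), and 3875 for cJun and not for KLF4 (cJun-only). Together these were 9750 of the 34724 intervals that stood in at least 1 of the 9 lists on these chromosomes. Below, these 34724 are called all intervals or the intervals of the series. The remaining 24974 intervals were listed for neither.

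3T3-L1 is an immortalised mouse cell line, derived from embryonic fibroblasts, that can be driven to become adipocytes in culture. Cells past confluence received dexamethasone at 1 μM, 3-isobutyl-1-methylxanthine (IBMX, spelled methylxantine in the labels) at 0.5 mM, insulin at 1 μg per ml and 10% FCS, and chromatin was taken 4 h later. All 9 lists come from cells treated in this way, without a knockdown and without an untreated counterpart among the lists used here. Each factor had 1 library. The antibodies to KLF4 and cJun came from the same supplier (Santa Cruz), and that to KLF5 was a gift from another laboratory. No list gives a read number or a score, so the depth of the libraries is unknown, and a site absent from a list may have been bound below the authors' threshold. With 1 library per factor no test between factors was possible. The intervals below are 95% intervals that cover counting error only, not variation between cultures, antibodies or libraries, and they treat sites as independent although sites near each other are not.

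Krüppel-like factors such as KLF4 bind GC-rich and CACCC-type elements through zinc fingers at the C-terminus, and KLF4 and KLF5 are both known as early regulators of adipogenesis. cJun is a subunit of AP-1. It binds DNA as a dimer through a basic region and a leucine zipper. Its partners are other Jun proteins, Fos proteins such as FOSL2, or ATF proteins such as ATF2. Dimers with Jun or Fos proteins bind the TPA response element. The other 7 lists, which were not used to form the classes, cover 4 more bZIP proteins (the AP-1 subunits JunB and FOSL2, and ATF2 and ATF7), the KLF4 relative KLF5, and the nuclear receptors VDR (vitamin D receptor) and RXR (retinoid X receptor, the dimer partner of VDR).

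cJun was listed at 39.1% of KLF4 sites (2300 of 5875, 95% exact interval 37.9 to 40.4), where it was listed at 17.8% of all intervals. KLF4 was listed at 37.2% of cJun sites (2300 of 6175, 36.0 to 38.5), against 16.9% of all intervals. Each factor was thus listed 2.20 times as often at sites of the other as at all intervals (2.13 to 2.27). For KLF4, this ratio was higher with cJun than with any of the other 7 lists. It was 2.04 with RXR (2.01 to 2.07), 2.03 with VDR (2.00 to 2.07), 1.78 with JunB and 1.75 with its relative KLF5. The ratio was 1.60 with FOSL2, 1.36 with ATF7 and 1.18 with ATF2. A longer list has less room for a high ratio, so the rank depends in part on list length, and the cJun list was the shortest of these. KLF5 was listed at 49.3% of all intervals and at 86.4% of KLF4 sites. RXR (71.0%), VDR (69.0%) and JunB (51.7%) were also listed at more KLF4 sites than cJun, and ATF2 (39.2%) at about as many. By the ratio, the order for cJun was different. JunB stood first, at 80.1% of cJun sites and a ratio of 2.76 (2.72 to 2.79), KLF4 came next, and RXR, FOSL2 and VDR followed with 1.82, 1.81 and 1.79. KLF5 had 1.34, ATF7 1.17 and ATF2 0.981 (0.946 to 1.02). Every interval in the series was listed for at least 1 factor, so the share in all intervals is not a chance value.

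The shared fraction varied among chromosomes. It ranged from 28.7% of KLF4 sites on chromosome X to 46.9% on chromosome 13 (median of 20 chromosomes 38.3%), and from 25.5% of cJun sites on chromosome X to 44.1% on chromosome 19 (median 35.8%). Counting overlapping intervals as shared changed little, since 34 of the KLF4-only sites overlapped an interval of the cJun list and 19 of the cJun-only sites an interval of the KLF4 list.

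JunB, the close relative of cJun, and KLF5, the close relative of KLF4, showed the widest differences between KLF4-only and cJun-only sites. JunB was listed at 75.4% of cJun-only sites (74.1 to 76.8) and at 28.3% of KLF4-only sites (26.9 to 29.8). All intervals, which include the cJun sites, had 29.0%, and intervals listed for neither KLF4 nor cJun had 16.5%. The difference of -47.1 points (KLF4-only minus cJun-only, Newcombe 95% interval -49.1 to -45.1) had the same sign on 20 of 20 chromosomes, from -56.2 points on chromosome 5 to -38.6 on chromosome 13. KLF5 was listed at 80.7% of KLF4-only sites (79.3 to 82.0) and at 48.6% of cJun-only sites (47.0 to 50.2). All intervals, which include the KLF4 sites, had 49.3%, and intervals listed for neither factor had 40.7%. KLF4-only sites exceeded cJun-only sites by 32.1 points (30.0 to 34.1), from 20.7 points on chromosome 10 to 40.8 on chromosome 12. Sites with KLF5 and without JunB made up 54.9% of the KLF4-only class and 8.13% of the cJun-only class, with 32.3% of all intervals. Sites with JunB and without KLF5 made up 2.52% and 35.0%, with 12.0% of all intervals.

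The shared sites carried both relatives. JunB was listed at 87.9% of them (86.5 to 89.2) and KLF5 at 95.3% (94.4 to 96.2). Both together were listed at 84.5% (83.0 to 86.0), compared with 25.8% of KLF4-only and 40.4% of cJun-only sites and 17.0% of all intervals. In all, 29 of 2300 shared sites (1.26%) had neither JunB nor KLF5, where 16.8% of KLF4-only and 16.4% of cJun-only sites and 38.7% of all intervals had neither.

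**Figure D1:**
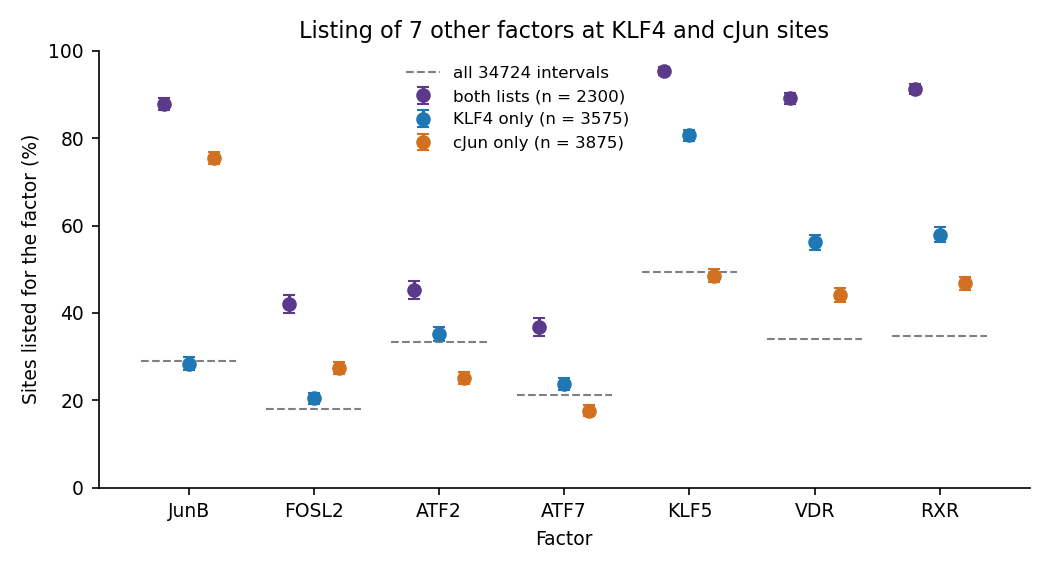
Share of sites (vertical axis, %) listed for each of 7 other factors (horizontal axis) among sites in both lists, in the KLF4 list only and in the cJun list only; points are shares, bars 95% exact intervals, and dashed lines the share among all intervals. JunB sits at 87.9%, 28.3% and 75.4% in the 3 classes and KLF5 at 95.3%, 80.7% and 48.6%, and shared sites have the highest share for each of the 7 factors.

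The nuclear receptors were the other mark of the shared sites. VDR was listed at 89.1% of shared sites (87.7 to 90.3), 56.1% of KLF4-only and 44.2% of cJun-only sites, with 34.0% of all intervals. RXR was listed at 91.3% (90.0 to 92.4), 58.0% and 46.8%, with 34.8% of all intervals. VDR and RXR, which bind together as a heterodimer, were both listed at 85.5% of shared sites (84.0 to 86.9), 46.9% of KLF4-only sites (45.2 to 48.5) and 32.0% of cJun-only sites (30.6 to 33.5), with 22.8% of all intervals. A site with only 1 of the receptors was less frequent among shared sites (9.30%) than among KLF4-only (20.4%) and cJun-only sites (26.9%), which lay on either side of the 23.2% of all intervals. Between the single-list classes, VDR was 12.0 points higher at KLF4-only sites (9.72 to 14.2), with chromosome 7 as the exception among 20, and RXR was 11.2 points higher (8.93 to 13.4), with chromosome 11 as the exception.

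Whether a site was shared went with the receptors and with the relative of the other factor. The rise with the receptors was also seen over all intervals. KLF4 was listed at 1290 of the 18762 with neither receptor and at 3642 of the 7914 with both, and cJun at 1712 and 3208. KLF4 was listed at 5077 of the 17120 intervals with KLF5, and cJun at 4945 of the 10082 with JunB. Of cJun sites with neither receptor, 6.95% were listed for KLF4 (119 of 1712, 5.79 to 8.26). With 1 receptor the share was 17.1% (15.0 to 19.2), and with both it was 61.3% (1967 of 3208, 59.6 to 63.0). Of cJun sites without KLF5, 5.10% were listed for KLF4, and of those with KLF5, 53.8%. The rise with the receptors was seen with and without JunB. Among cJun sites with both receptors, KLF4 was listed at 63.0% of those with JunB and 50.9% of those without it. Among cJun sites with neither receptor the shares were 8.31% and 3.85%. KLF5 made more difference here. At cJun sites with both receptors, KLF4 was listed at 66.3% where KLF5 was listed too (1927 of 2905) and at 13.2% where it was not (40 of 303, 9.60 to 17.5). Seen from KLF4, cJun was listed at 9.22% of sites with neither receptor (119 of 1290), 22.7% with 1 and 54.0% with both (1967 of 3642). It was listed at 9.79% of KLF4 sites without JunB and 66.6% of those with JunB, a wider span than for the receptors. JunB divided the KLF4 sites with both receptors: cJun was listed at 72.5% of those with JunB (1735 of 2394, 70.6 to 74.3) and at 18.6% of those without it (232 of 1248, 16.5 to 20.9). KLF4 sites with JunB and neither receptor had cJun in 35.9% of cases (99 of 276, 30.2 to 41.8), and those with neither JunB nor a receptor in 1.97% (20 of 1014, 1.21 to 3.03).

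FOSL2 and the ATF proteins differed less between the classes. FOSL2 was listed at 42.0% of shared, 20.4% of KLF4-only and 27.4% of cJun-only sites, with 18.1% of all intervals. The difference was -6.93 points (KLF4-only minus cJun-only, -8.86 to -5.00), and on chromosomes 2 and 10 the sign was the opposite. ATF2, a bZIP protein like cJun, was more frequent at KLF4-only sites (35.2%) than at cJun-only sites (25.1%), where it fell short of the 33.3% of all intervals. The difference was 10.2 points (8.08 to 12.2) and positive on 20 of 20 chromosomes. ATF7, its relative, was listed at 23.8% and 17.6%, with 21.2% of all intervals, a difference of 6.18 points (4.34 to 8.02) that was negative on chromosomes 3 and 11. At shared sites ATF2 was listed in 45.3% and ATF7 in 36.8% of cases. ATF2 or ATF7 stood at 50.4% of shared, 40.1% of KLF4-only and 29.8% of cJun-only sites, with 40.5% of all intervals, so that KLF4-only sites were at the level of all intervals. None of the 4 other bZIP proteins was listed at 9.83% of shared, 44.5% of KLF4-only and 21.1% of cJun-only sites, with 36.9% of all intervals.

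Shared sites held more of the other factors in general. On average 4.88 of the other 7 were listed at a shared site (95% interval 4.82 to 4.94), 3.03 at a KLF4-only site (2.97 to 3.09) and 2.85 at a cJun-only site (2.79 to 2.91). Intervals listed for neither KLF4 nor cJun, which by construction have at least 1 of the 7, had 1.73 (1.72 to 1.74). The shared class was above both single-list classes on 20 of 20 chromosomes, and the KLF4-only class was above the cJun-only class on 16. At least 3 others were listed at 96.2% of shared, 61.3% of KLF4-only and 54.8% of cJun-only sites, with 19.3% of intervals listed for neither. At the other end, 6 shared sites (0.261%, 0.0958 to 0.567) had none of the other 7, against 298 KLF4-only (8.34%) and 367 cJun-only sites (9.47%). By construction, no other interval of the 34724 had none of the 7. The distribution at shared sites had peaks at 4 other factors (756 sites, 32.9%) and at all 7 (504 sites, 21.9%). KLF4-only sites had a peak at 3 (874 sites, 24.4%), and cJun-only sites had nearly equal numbers with 2, 3 and 4 (733, 728 and 716).

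**Figure D2:**
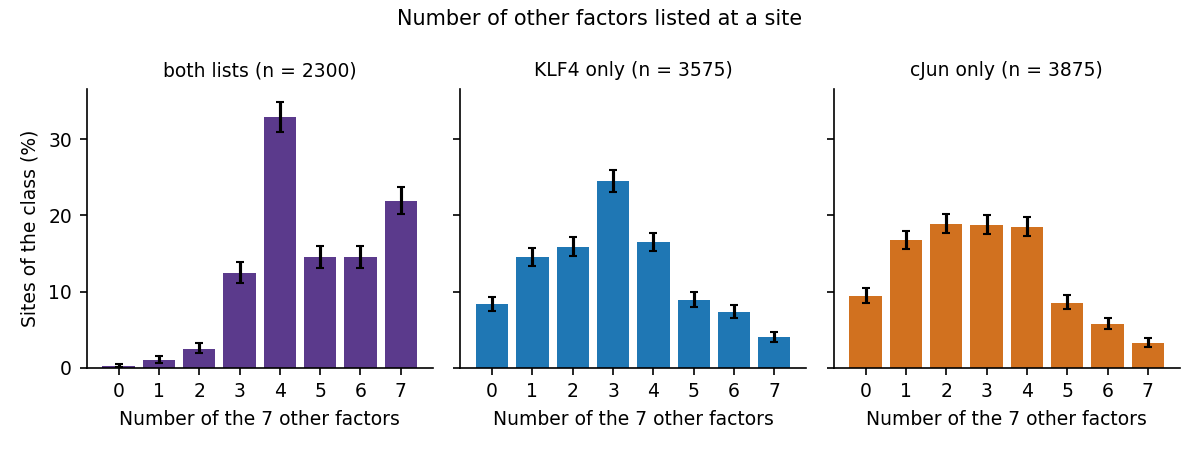
Share of the sites of each class (vertical axis, %) by the number of the other 7 factors listed (horizontal axis); bars start at 0 and carry 95% exact intervals. Shared sites peak at 4 (32.9%) and at 7 (21.9%), KLF4-only sites at 3 (24.4%), and cJun-only sites hold 16.8% to 18.9% each at 1 to 4.

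Most of the peak at 4 came from 1 combination. This was JunB, KLF5, VDR and RXR without FOSL2, ATF2 or ATF7, found at 681 of the 756 shared sites with 4 others, which is 29.6% of all shared sites (27.7 to 31.5), and the same combination was found at 234 KLF4-only (6.55%) and 411 cJun-only sites (10.6%). The most frequent combination at KLF4-only sites was KLF5, VDR and RXR, at 561 sites (15.7%, 14.5 to 16.9). It stood at 192 shared (8.35%) and 133 cJun-only sites (3.43%). KLF5 alone came next in the KLF4-only class, with 353 sites (9.87%), where 4 shared and 52 cJun-only sites had it. This combination was common throughout, at 4512 of all 34724 intervals, a larger share than in the KLF4-only class. The most frequent combination at cJun-only sites was JunB alone, at 435 sites (11.2%, 10.2 to 12.3), compared with 8 shared and 30 KLF4-only sites. All 7 others were listed at 143 KLF4-only (4.00%) and 126 cJun-only sites (3.25%). Among all 34724 intervals, JunB, KLF5, VDR and RXR were found at 1602, and KLF5, VDR and RXR at 1988. JunB alone was found at 1871 of them and all 7 others at 835.

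Individual sites show these patterns (mm9, positions counted from 1). The first 3 shared sites with JunB, KLF5, VDR and RXR lay on chromosome 1, from 23919806 to 23920205, from 35995847 to 35996246 and from 40292443 to 40292842. The first 3 KLF4-only sites with KLF5, VDR and RXR were on the same chromosome, from 7099503 to 7099902, from 30986974 to 30987373 and from 33728169 to 33728568. The first 3 cJun-only sites with JunB alone were there too, from 5005471 to 5005870, from 31213745 to 31214144 and from 40099073 to 40099472. Shared sites without any of the other 7 were rare, and the first 3 lay on chromosome 2 from 84250157 to 84250556, chromosome 4 from 136126020 to 136126419 and chromosome 7 from 78537896 to 78538295. The first 3 such KLF4-only sites lay on chromosome 1 from 39340178 to 39340577, from 57962689 to 57963088 and from 63223430 to 63223829, and the first 3 such cJun-only sites on chromosome 1 from 14460454 to 14460853, from 26744434 to 26744833 and from 37272923 to 37273322. The genes and the sequence at these positions were not analysed here.

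Because the number of other factors differed between the classes, KLF4-only and cJun-only sites were also compared at equal numbers of the remaining 6 factors, by a Mantel-Haenszel odds ratio of KLF4-only against cJun-only. The odds ratio was 7.01 for KLF5 (6.18 to 7.95) and 0.0723 for JunB (0.0636 to 0.0822), which is 13.8 in favour of cJun-only sites. JunB was listed at 54.2% of cJun-only and 9.15% of KLF4-only sites that had none of the remaining 6, and at 96.2% and 60.3% of those with all 6. For KLF5 the shares were 12.4% of cJun-only and 54.2% of KLF4-only sites with none of the remaining 6, and 88.7% and 98.6% of those with all 6. The odds ratio was 1.74 for ATF2 (1.56 to 1.94), 1.67 for VDR (1.51 to 1.84), 1.63 for RXR (1.47 to 1.80), 1.47 for ATF7 (1.30 to 1.67) and 0.548 for FOSL2 (0.487 to 0.618). In a logistic model with the remaining 6 factors as separate terms, the values were 6.32 for KLF5, 0.0779 for JunB, 1.93 for ATF2, 1.44 for ATF7 and 0.798 for FOSL2 (0.680 to 0.937). In that model the receptors came nearer to 1, with 1.24 for VDR (1.08 to 1.42) and 1.13 for RXR (0.978 to 1.30). The interval for RXR includes 1. The receptors did not differ evenly. At sites with none of the remaining 6, VDR was listed at 14.6% of KLF4-only and 14.8% of cJun-only sites, and RXR at 8.87% and 14.8%, while with 2 of the remaining 6, VDR was listed at 63.8% and 42.6% and RXR at 65.4% and 44.7%.

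The same question was put to the shared class: was KLF4 listed more often at intervals with cJun than at intervals without cJun when the other factors were equal in number? With 1 other factor KLF4 was listed at 3.42% of intervals with cJun and 3.48% without, a difference of -0.0652 points (-1.24 to 1.62), and with 2 others at 7.33% and 8.96% (-1.63 points, -3.40 to 0.515). With 3 others the shares were 28.2% and 22.4% (5.79 points, 2.80 to 8.92), and with 4 they were 51.4% and 35.0% (16.4 points, 12.9 to 19.8). The difference was 7.24 points with 5 others (2.03 to 12.4), 4.03 with 6 (-2.01 to 10.1) and 10.2 with all 7 (3.50 to 17.5). The intervals for 1, 2 and 6 others include 0. Over all intervals with at least 1 other factor the Mantel-Haenszel odds ratio was 1.43 (1.32 to 1.55), where without regard to the other factors it was 4.98 (4.67 to 5.31). It was 1.52 (1.38 to 1.67) among intervals with the same combination of the other 7 and 1.51 (1.37 to 1.66) in a logistic model. Intervals with none of the other 7 are left out here, since an interval is in the series only if some factor was listed there.

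**Figure D3:**
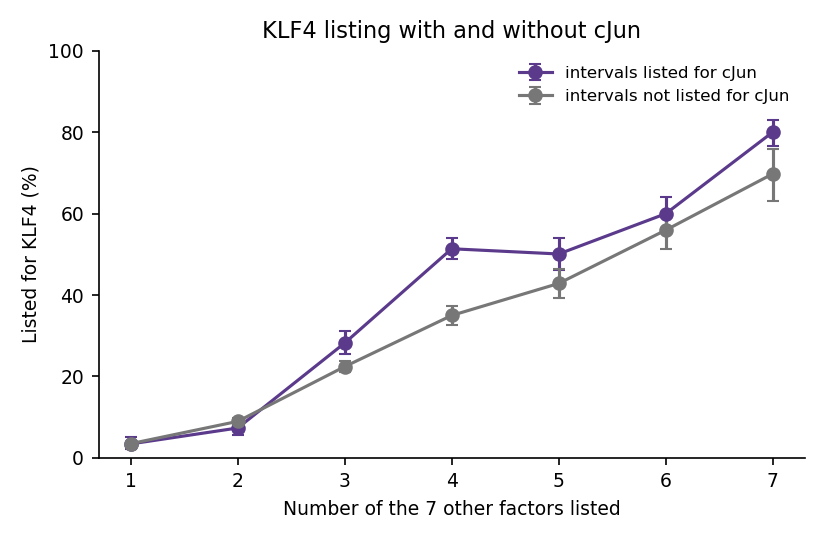
Share of intervals listed for KLF4 (vertical axis, %) by the number of the other 7 factors listed (horizontal axis), for intervals with cJun and without cJun; bars are 95% exact intervals. The lines lie together at 1 and 2 other factors and are widest apart at 4 (51.4% against 35.0%).

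The difference was not found in every combination. There were 25 combinations of the other 7 with at least 50 intervals with cJun and 50 without, a minimum that makes no use of KLF4 and was set after the values were seen. KLF4 was listed more often with cJun in 16 of them and less often in 9. The interval of the difference lay above 0 in 6, below 0 in none, and included 0 in 19. Among the 6 were VDR alone, with 11.1% (8 of 72) against 3.02% (51 of 1690), and JunB, FOSL2, ATF2, ATF7 and KLF5 without a receptor. For the latter the shares were 39.7% (25 of 63) and 20.8% (11 of 53). Among the 19 was JunB, ATF2, ATF7, KLF5, VDR and RXR, at 68.9% and 64.9% (-7.30 to 15.4 points). At intervals with KLF5, VDR and RXR alone among the other 7, KLF4 was listed at 59.1% of those with cJun (192 of 325) and 33.7% of those without (561 of 1663), 25.3 points apart (19.5 to 31.0). With JunB added, the shares were 62.4% (681 of 1092) and 45.9% (234 of 510), 16.5 points apart (11.3 to 21.6). With all 7 they were 80.0% (504 of 630) and 69.8% (143 of 205). At intervals with KLF5 alone, KLF4 was listed at 7.14% of those with cJun (4 of 56) and 7.92% of those without (353 of 4456). With JunB alone the shares were 1.81% (8 of 443) and 2.10% (30 of 1428). For JunB and KLF5 without a receptor, FOSL2 or an ATF protein they were 12.1% (20 of 165) and 16.9% (58 of 343), with an interval of -10.8 to 2.09 points.

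The row order of the lists offered a further readout. The rows were not in order of position, and intervals shared by several lists stood in the same order in each, but no source used here states what the order stands for. Shared sites stood early. Their median place was 33.5% of the way down the KLF4 list (95% interval 31.9 to 35.3) and 22.7% down the cJun list (21.5 to 23.8). KLF4-only sites had a median place of 61.6% in the KLF4 list (60.2 to 63.1) and cJun-only sites one of 65.9% in the cJun list (64.8 to 67.0). In the first 100 rows, 96 cJun sites were listed for KLF4 and 76 KLF4 sites for cJun. From the first 10% of rows to the last, the share of cJun sites that were shared fell from 90.0% (87.3 to 92.2) to 1.78% (0.892 to 3.16), and the share of KLF4 sites that were shared fell from 66.1% (62.1 to 69.9) to 9.86% (7.58 to 12.6). Both shares fell from each 10% of rows to the next.

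**Figure D4:**
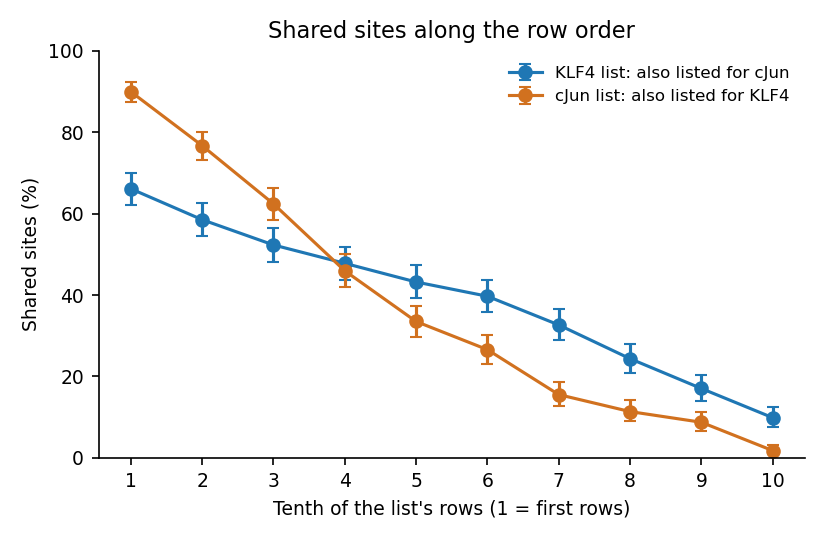
Share of shared sites (vertical axis, %) in successive parts of the rows of the KLF4 list and of the cJun list, each part holding 10% of the rows (horizontal axis, 1 = first rows); bars are 95% exact intervals. The cJun list goes from 90.0% to 1.78% and the KLF4 list from 66.1% to 9.86%.

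Other factors moved along the rows as well. The mean number of the other 7 factors went from 5.39 in the first 10% of cJun rows to 1.02 in the last, and from 5.20 to 1.40 along the KLF4 rows. KLF5 was listed at 98.4% of the first and 15.2% of the last cJun rows, and JunB at 79.6% of the first and 19.2% of the last KLF4 rows. Place still went with sharing among sites with equally many other factors, more so in the cJun list. Among cJun sites with 4 others, KLF4 was listed at 63.3% of those in the first 50% of rows (637 of 1006, 60.3 to 66.3) and 25.5% of those in the last 50% (119 of 466, 21.6 to 29.8). With all 7 others the shares were 83.4% (481 of 577) and 43.4% (23 of 53, 29.8 to 57.7). Among KLF4 sites with 4 others, cJun was listed at 63.7% of those in the first 50% of rows (512 of 804) and 45.1% in the last 50% (244 of 541), and with 3 others at 26.2% and 23.3%, with overlapping intervals. With 1 or 2 others the KLF4 list ran the other way, at 1.89% and 4.50% with 1 and at 6.14% and 9.96% with 2, also with overlapping intervals. Dense stretches of chromosome 10 contributed to the head of the lists: 3 bins of 1 Mb (107 to 108, 116 to 117 and 117 to 118 Mb) held 23 of the first 100 rows of each list and 2.50% of all intervals. Without these bins, 75 of 77 cJun sites and 58 of 77 KLF4 sites from the first 100 rows were shared.

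The other 7 lists placed the classes in 1 order throughout. Shared sites had the earliest median place in each of the 7, from 13.7% in the ATF2 list to 19.6% in the VDR list. KLF4-only sites came next, from 27.9% in the ATF2 list to 34.1% in the KLF5 list, and cJun-only sites were later in each, from 41.0% in the ATF2 list to 53.6% in the VDR list. In the JunB list the medians were 17.2% (16.3 to 18.3) for shared, 29.3% (26.8 to 31.8) for KLF4-only and 52.7% (51.4 to 54.0) for cJun-only sites, although JunB was listed at far more cJun-only than KLF4-only sites. In the KLF5 list they were 16.2% (15.4 to 17.3), 34.1% (32.5 to 35.7) and 45.1% (43.4 to 46.5). All 9 lists, those of KLF4 and cJun included, follow 1 common order. The places in the 7 lists are thus not 7 separate observations, and they are not independent of the places in the KLF4 and cJun lists. On the common order of all 9 lists, cJun-only sites were also later than KLF4-only sites with the same number of other factors. The medians were 39.5% (37.0 to 41.1) and 26.7% (24.1 to 29.3) with 4 others, 23.0% (20.1 to 27.7) and 10.7% (9.11 to 13.5) with all 7, and 89.0% (87.3 to 91.0) and 77.4% (72.6 to 81.4) with none. Intervals listed for cJun and for no other factor of the 9 had the latest median of the 9 such sets, and the other 8 medians ranged from 73.6% (FOSL2) to 83.9% (JunB).

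**Figure D5:**
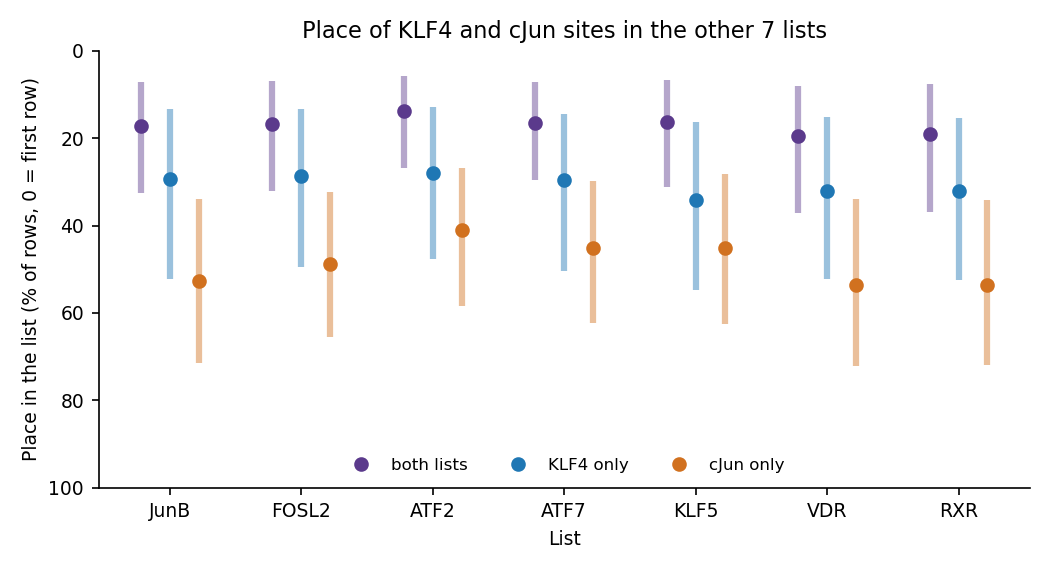
Place of shared, KLF4-only and cJun-only sites in each of the other 7 lists (horizontal axis), as percent of the list's rows with the first row at the top (vertical axis); points are medians and bars run from the first to the last quartile boundary. In each list shared sites stand first (medians 13.7% to 19.6%) and cJun-only sites last (41.0% to 53.6%).

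The classes also differed in how crowded their surroundings were. Another interval of the series lay within 10 kb of 70.4% of shared sites (68.5 to 72.3), 66.8% of KLF4-only sites (65.2 to 68.3) and 56.3% of cJun-only sites (54.8 to 57.9), with 60.6% of all intervals. KLF4-only exceeded cJun-only sites by 10.5 points (8.26 to 12.6), on 20 of 20 chromosomes. Shared exceeded KLF4-only sites by 3.59 points (1.16 to 6.0), but on 12 of 20 chromosomes only. The median distance to the nearest other interval was 3827 bp for shared, 4448 bp for KLF4-only and 7473 bp for cJun-only sites. Sites with more factors had closer neighbours, and cJun-only sites were the more isolated at like numbers. A neighbour within 10 kb was present at 61.2% of KLF4-only and 51.9% of cJun-only sites with up to 2 other factors, at 67.7% and 56.9% of those with 3 or 4, and at 75.8% (72.5 to 78.9) and 66.4% (62.7 to 69.9) of those with 5 to 7. Shared sites with 3 or 4 others (66.3%) and with 5 to 7 (74.8%) had about the same shares as KLF4-only sites.

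Sites of a class were found near each other, but for cJun this depended on the comparison. A different KLF4-listed interval lay within 10 kb of 27.6% of KLF4-only sites (26.2 to 29.1), 31.7% of shared sites and 17.6% of cJun-only sites, where 18.3% of intervals listed for neither factor had one. A different cJun-listed interval lay within 10 kb of 20.8% of cJun-only sites (19.5 to 22.1), 29.2% of shared sites and 22.5% of KLF4-only sites, against 17.1% of the intervals with neither. The share was thus no higher around cJun-only than around KLF4-only sites, which had more neighbours of any kind. Among the sites with a neighbour within 10 kb, the nearest interval was KLF4-only for 16.1% of KLF4-only, 10.3% of cJun-only and 13.9% of shared sites. It was cJun-only for 15.6% of cJun-only, 9.17% of KLF4-only and 11.3% of shared sites. It was itself shared for 12.9% of shared, 9.80% of KLF4-only and 9.21% of cJun-only sites. The nearest interval of a cJun-only site was listed for JunB in 36.0% of cases (34.0 to 38.1) and that of a KLF4-only site in 29.5% (27.7 to 31.4). For shared sites it was 34.0%, and for intervals of neither factor 27.7%, close to the KLF4-only value. For KLF5 the shares were 55.2% for cJun-only, 61.7% for KLF4-only and 62.6% for shared sites, and 52.0% for intervals of neither factor.

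A cJun-only interval overlapped 0.336% of KLF4-only sites and 0.320% of intervals listed for neither factor. A KLF4-only interval overlapped 0.310% of cJun-only sites and 0.501% of intervals listed for neither. Overlap with any interval was also infrequent, at 5.43% of KLF4-only sites, 3.30% of cJun-only sites and 5.13% of intervals listed for neither. In all, 12 pairs of a KLF4-only and a cJun-only interval overlapped. The closest was on chromosome 1, where the KLF4-only interval ran from 154977371 to 154977770 and was also listed for KLF5, and the cJun-only interval ran from 154977115 to 154977514 and was also listed for JunB and FOSL2, with midpoints 256 bp apart. The next lay on chromosome 17, from 44637069 to 44637468 (KLF4-only, with KLF5 and RXR) and from 44637372 to 44637771 (cJun-only, with JunB, FOSL2, ATF2 and ATF7), 303 bp apart. The next was on chromosome 11, from 44988538 to 44988937 (KLF4-only, with ATF7, KLF5 and RXR) and from 44988232 to 44988631 (cJun-only, with JunB and KLF5), 306 bp apart. The closest midpoints of any intervals in the series were 201 bp apart.

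Most shared sites had no other shared site within 10 kb. Joined within 10 kb they formed 2086 stretches, of which 1905 held 1 shared site, 156 held 2 and 25 held 3 or more. Of the 2300 shared sites, 395 (17.2%, 15.7 to 18.8) were in a stretch with another. For comparison, a shared site lay within 10 kb of 13.4% of KLF4-only sites, 9.26% of cJun-only sites and 8.28% of intervals listed for neither. The stretches with most shared sites held 5 each. One ran on chromosome 6 from 12398862 to 12409181, with no other interval of the series in between and on average 4.40 of the other 7 factors. Another ran on chromosome 10 from 107337045 to 107358949, in one of the dense bins, with 1 cJun-only interval and 7 intervals of neither factor inside. The next held 4, on chromosome 2 from 148271318 to 148282283.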

How the data were processed

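Per the labels, ChIP-seq was made in 3T3-L1 cells 4 h after induction, with 1 library for each of the 9 factors used, and 21 of the 30 labelled samples were not analysed here. The deposited lists hold 3 columns and no count or score: the chromosome, start and end of intervals that are each 400 bp long. FastQC, Bowtie, HOMER and the build mm9 are named per the submitters' processing notes. Versions, roles, the peak threshold and how the lists came to share intervals and row order: not given in the sources used here. A stricter threshold could not be set, and the depth is unknown.

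Intervals were matched by identical coordinates, and 2 intervals on chromosome Y were left out. Shares carry exact Clopper-Pearson, differences Newcombe and odds ratios Robins-Breslow-Greenland 95% intervals; the intervals of medians are binomial. A place is a row number as percent of the list's rows. The 9 orders did not contradict each other; the place on the common order is the earliest one that all lists allow (22161 places for 34726 intervals). Sites named by position are the first 3 in order of position with the most frequent combination, or with none, of the other 7 factors in each class, the 3 closest pairs and the 3 stretches with most shared sites. Classes and comparisons were chosen with earlier results of these data known. Calculations were tested on simulated data. Python 3.11.15, numpy 2.4.6, scipy 1.17.1, pandas 2.3.3, statsmodels 0.14.6 and matplotlib 3.10.9 were used.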

Additional observations from a re-analysis of the deposited data

How the results depend on the processing

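Of 131 recalculations of 27 results, 76 were of differences or odds ratios, which have a direction, and none of these reversed. Of the 131, 107 stayed within the 95% interval of the value given above. No paired analysis was possible because each factor had 1 library. The other 24 were as follows. Counting midpoints within 1 kb as shared gave 41.8% of KLF4 and 39.1% of cJun sites; the first 50% of the rows of each list gave 53.6% and 51.0%. Among isolated sites, with no other interval within 1 kb, 34.6% of cJun sites were shared, and the mean number of other factors was 4.79 at shared and 2.94 at KLF4-only sites. Without stratification the odds ratio was 0.129 for JunB, 0.682 for FOSL2, 4.42 for KLF5 and 4.98 for KLF4 with cJun. In the logistic model it was 0.798 for FOSL2, 1.24 for VDR and 1.13 for RXR. A neighbour within 5 kb was present at 56.4% of shared, 52.5% of KLF4-only and 41.2% of cJun-only sites, and within 50 kb at 94.7%, 93.4% and 88.5%. On the common order of the 9 lists the median place was 15.4% for shared, 36.2% for KLF4-only and 55.7% for cJun-only sites. Leaving out chromosome 10, its dense bins (chosen after seeing the data) or chromosome X moved none of the results tried beyond its interval. The odds ratios, neighbours and places were not recomputed without chromosome X. The alternatives for the odds ratio of KLF4 with cJun were also chosen after seeing the data.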

Other observations

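On chromosome Y, which was left out of the comparison, the 9 lists held 2 intervals, and 1 of them was listed for both KLF4 and cJun.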
